A study of Mus musculus with 2 samples.

Results

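mmu-miR-199a-3p, mmu-miR-199a-5p, mmu-miR-199b* and mmu-miR-214, written below without the species prefix, are 4 of the 696 mouse miRNAs on Agilent miRNA arrays that compared the 3rd mammary gland with the flank tissue lying between the 3rd and 4th glands, called the inter mammary gland region. These are the gland and the flank below. The 4 miRNAs were chosen by name, as products of the miR-199 and miR-214 hairpins, when earlier results of these data were already known. Both tissues came from untreated ICR mouse embryos at E13.5, when a mammary gland holds both epithelium and mesenchyme. Total RNA (100 ng per region) was labelled with Cy3 and hybridized to 1 array per region, both read in 1 scan of 1 slide. The sources used here do not give the number or the sex of the embryos or say whether they were pooled. With 1 array per region there was no replicate, no test was run, and no SD below covers the spread between embryos or dissections. Each SD is over spots, the repeats of a probe on 1 array.

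A miRNA pairs with its target mRNAs mainly through its seed, bases 2 to 8 from the 5′ end, and lowers their translation and stability. The hairpins Mir199a-2 and Mir214 are processed from Dnm3os, a long noncoding RNA made from the strand opposite to the dynamin gene Dnm3. Dnm3os and its miRNAs are known from the mesenchyme of the embryo, including that of the limb, the face and the developing skeleton, and both miRNAs have been studied in fibroblasts and in fibrosis. Each hairpin has 2 arms, of which the star in the older names marks the one then thought to be the minor product.

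The mature sequences are shown because they show which members share a seed and which loci a probe could read. The RefSeq table of assembly GRCm38.p6 held 3 of the 4 members, and the table's names for these are miR-199a-3p, miR-199a-5p and miR-214-3p. miR-199b* is the arm now named miR-199b-5p. Each sequence runs 5′ to 3′ with its seed in capitals.
miR-199a-3p: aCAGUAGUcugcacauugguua
miR-199a-5p: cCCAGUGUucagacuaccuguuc
miR-214: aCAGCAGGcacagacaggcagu
miR-214*: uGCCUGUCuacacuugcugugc

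miR-199a-3p and miR-199a-5p each lay at 2 loci, and the third hairpin, Mir199b, carried the same 3p sequence. On chromosome 1 they came from Mir199a-2, miR-199a-5p at chr1:162217844-162217866 and miR-199a-3p at chr1:162217883-162217904, both on the plus strand. On chromosome 9 they came from Mir199a-1, at chr9:21496537-21496559 and chr9:21496498-21496519 on the minus strand, inside Dnm2. The 3p arm of Mir199b lay at chr2:32318524-32318545 on the plus strand, inside Dnm1. All 3 copies of the 3p sequence were identical, so the probes for miR-199a-3p cannot tell 3 hairpins apart, and the arrays had no separate probes under the name miR-199b. miR-214 lay at chr1:162223438-162223459 and miR-214*, the other arm of the same hairpin, at chr1:162223397-162223418, both on the plus strand. The hairpins of Mir199a-2 and Mir214 were 5444 bases apart and both lay inside Dnm3os. In the RefSeq table, 1 other mature name, miR-199b-3p, shared the seed of miR-199a-3p and 1 other, miR-761, shared that of miR-214. miR-199a-5p and miR-199b* are known as members of the same seed family. The array's grid was annotated to another assembly, and no position from it was used.

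All 4 miRNAs were detected in both regions, and none of them differed between the regions by 1.5-fold. The signal of each was somewhat higher in the gland, from 1.25 times that of the flank for miR-199a-3p to 1.05 times for miR-199b*. 0 of the 4 passed 1.5-fold in either direction. Of the 284 miRNAs detected on both arrays, 2.11% passed it upward in the gland, 9.15% downward and 11.3% in either direction, so a count of 0 of 4 lies near the background. The split of all miRNAs moved with the processing. It was 6 higher and 26 lower (18.8% higher) in the main setting. In the deposited table with no scaling it was 20 higher and 21 lower (48.8% higher). After normexp, another background correction, it was 2 higher and 18 lower (10% higher). That setting also added an offset of 50 to every signal, which draws ratios before scaling toward 1. Detection of a miRNA meant that, for at least 1 of its probes, more than 50% of the spots were well above background. The ratios were taken after the array of the gland had been multiplied by 0.914, which sets the 75th percentiles of the probes detected on both arrays equal. Intensities below are in the scanner's arbitrary units after background subtraction and before that scaling, and levels of different probes are not compared, since each probe binds with its own efficiency.

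Each of the 4 was read by 2 probes of 10 spots each. Of their 80 spots on each array, the software marked 3 as outliers for the gland and 5 for the flank, and these were left out. All 77 remaining spots of the gland and all 75 of the flank were well above background. The dimmest of them had an intensity of 2253 in the gland and 1589 in the flank. The brightest negative control spots were at 17.3 and 19.2. The signal of these miRNAs was thus far from background in both regions, unlike that of miR-761, which has the seed of miR-214 and for which 0 of 20 spots was well above background on either array.

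**Figure D1:**
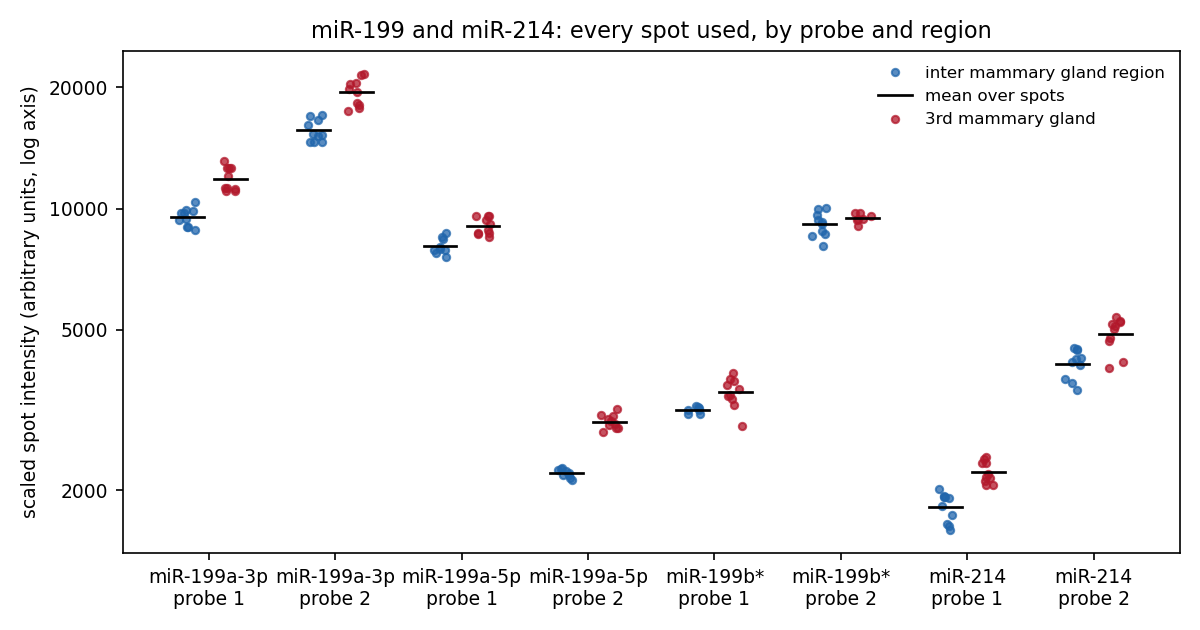
Scaled intensity (arbitrary units, log axis) of every spot used, for the 2 probes of each miRNA, in the flank (blue) and the gland (red). Black lines are means over spots. For 4 of the 8 probes the spots of the regions do not overlap, while both probes of miR-199b* overlap. Heights of different probes are not comparable.

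miR-199a-3p had the highest ratio of the 4 in 11 of 13 settings, and came after miR-199a-5p with outlier spots kept and after miR-199b* with quantile normalization. In the flank its first probe gave 9531 ± 489 (SD over 10 spots, from 8848 through a median of 9571 to 10398). In the gland the same probe gave 12991 ± 876 (SD over 10 spots, from 12078 through 12754 to 14352). The spots of the regions did not overlap on this probe. The second probe gave 15639 ± 979 (SD over 10 spots, 14610 to 17114) in the flank and 21345 ± 1660 (SD over 10 spots, 19146 to 23679) in the gland, again with no overlap. After scaling the ratio was 1.245 on the first probe and 1.247 on the second, and the spots of the regions did not overlap then either. For the miRNA the log2 ratio was 0.32 with an SD over spots of 0.13.

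miR-214, the product of the hairpin downstream of Mir199a-2 in Dnm3os, had the next highest ratio in the main setting. Its first probe gave 1812 ± 149 (SD over 10 spots, from 1589 through a median of 1867 to 2008) in the flank. In the gland it gave 2430 ± 151 (SD over 10 spots, from 2253 through 2384 to 2646), with every spot above those of the flank. The second probe gave 4116 ± 340 (SD over 10 spots, 3547 to 4494) and 5340 ± 512 (SD over 10 spots, 4389 to 5873), and here the lowest spot of the gland lay within the range of the other region. After scaling the ratios of the probes were 1.23 and 1.19. The log2 ratio of miR-214 was 0.26 with an SD over spots of 0.17.

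miR-214* could be set beside miR-214 because both arms come from 1 hairpin. It was read by 4 probes of 5 spots, and only 2 of them were detected on both arrays. The brightest of these gave 340 ± 5.78 (SD over 4 spots) in the flank and 441 ± 6.91 (SD over 5 spots) in the gland. The other gave 35.9 ± 2.72 and 44.4 ± 2.90 (SD over 5 spots each). On the remaining 2 probes 0 of 5 spots was well above background in either region. After scaling the log2 ratio was 0.25 on the brightest probe and 0.18 on the other detected probe. With all 4 probes averaged, 2 of them at background, the log2 ratio of miR-214* was 0.27, against 0.26 for miR-214. That gap is smaller than the SD over spots of either arm, which for miR-214* covers the detected probes only.

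The probes of miR-199a-5p differed from each other more than their spots did. In the flank the first probe gave 8080 ± 366 (SD over 9 spots, from 7600 through a median of 7944 to 8687), and in the gland 9908 ± 481 (SD over 10 spots, from 9289 through 9833 to 10506). The second probe gave 2204 ± 51.9 (SD over 9 spots, 2116 to 2273) and 3238 ± 129 (SD over 10 spots, 3055 to 3476). On both probes every spot of the gland was the brighter before scaling. After scaling the log2 ratio was 0.16 on the first probe, whose spots then overlapped, and 0.43 on the second, whose spots did not. The gap of 0.26 between the probes exceeded its SD over spots of 0.12. The log2 ratio of the miRNA was 0.22 with an SD over spots of 0.082, which leaves out this gap. 1 spot of the first probe in the flank had an intensity of 18.3, within the range of the negative controls, and was among those marked as outliers. With outlier spots kept, the log2 ratio of miR-199a-5p was 0.34.

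miR-199b*, the arm of Mir199b that corresponds to miR-199a-5p, had the lowest ratio. Its first probe gave 3168 ± 56.3 (SD over 7 spots, from 3095 through a median of 3165 to 3237) in the flank and 3829 ± 320 (SD over 10 spots, from 3166 through 3831 to 4264) in the gland. The second gave 9157 ± 646 (SD over 10 spots, 8057 to 10056) and 10377 ± 259 (SD over 7 spots, 9924 to 10676). The spots of the regions overlapped on both probes before and after scaling. The log2 ratio was 0.07 with an SD over spots of 0.13, so this difference was smaller than the spread over spots. miR-199a-5p and miR-199b* are close relatives in sequence, and how far a probe for one also bound the other was not tested.

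The differences between the members were themselves small. miR-199a-3p exceeded miR-199b* by 0.24 on the log2 scale, with an SD over spots of 0.18, the only 1 of the 6 pairs whose gap was larger than its SD over spots. miR-199a-3p and miR-199a-5p, the arms of the Mir199a hairpins, differed by 0.094 with an SD of 0.16. The probes for miR-199a-3p cannot tell its signal from that of Mir199b, so this does not compare the arms of the same hairpins alone. miR-199a-3p and miR-214, neighbours in the order, differed by 0.058 with an SD of 0.22. Each SD is the spread of single spots and not the error of a mean. These gaps do not involve the scaling factor. miR-199b* had the lowest ratio of the 4 in the main setting and in all alternatives except quantile normalization, which put it highest with a log2 ratio of 0.51.

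Spots at the same place on the 2 arrays were also compared. Of 72 such pairs of spots of the 4 miRNAs, 72 were brighter in the gland before scaling and 71 after it, and the exception belonged to miR-199b*. The array of the gland was the brighter for most miRNAs. Of the 284 detected on both arrays, 74.3% had a ratio above 1 before scaling and 57.7% after it. Counted by miRNA, as in these shares, all 4 had a ratio above 1 before and after scaling. The share over all pairs of spots or all probes of the arrays is not given here. All 8 probes had a log2 ratio above 0 after scaling, from 0.05 to 0.43. Spots and probes of an array share 1 RNA sample and 1 hybridization, so these counts describe the arrays and do not count independent samples.

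miR-199a-3p, miR-214 and miR-199a-5p lay in the upper part of the ratios of all miRNAs, and miR-199b* lay near the middle. Over the 284 miRNAs detected on both arrays the median log2 ratio was 0.048, with the 25th percentile at -0.14 and the 75th at 0.22. The share with a lower ratio was 86.3% for miR-199a-3p, 79.6% for miR-214, 74.6% for miR-199a-5p and 56.0% for miR-199b*. A ratio above 1 was not rare, since 57.7% of the 284 had one. The median of the 4, 0.24, lay 0.19 above that of all 284. Without any scaling between the arrays the median of the 4 was 0.37 and that of all miRNAs 0.18. The gap of 0.19 stays the same by construction, since a scaling factor shifts all log2 ratios alike. None of the 4 reached 1.5-fold under any of the 12 alternatives. Of the 280 other miRNAs, 71 had a log2 ratio within 0.1 of the median of the 4. The closest were let-7e (0.245), miR-342-3p (0.239), miR-28 (0.238), miR-540-3p (0.248) and miR-30b (0.249), and a likeness over 2 samples says little.

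**Figure D2:**
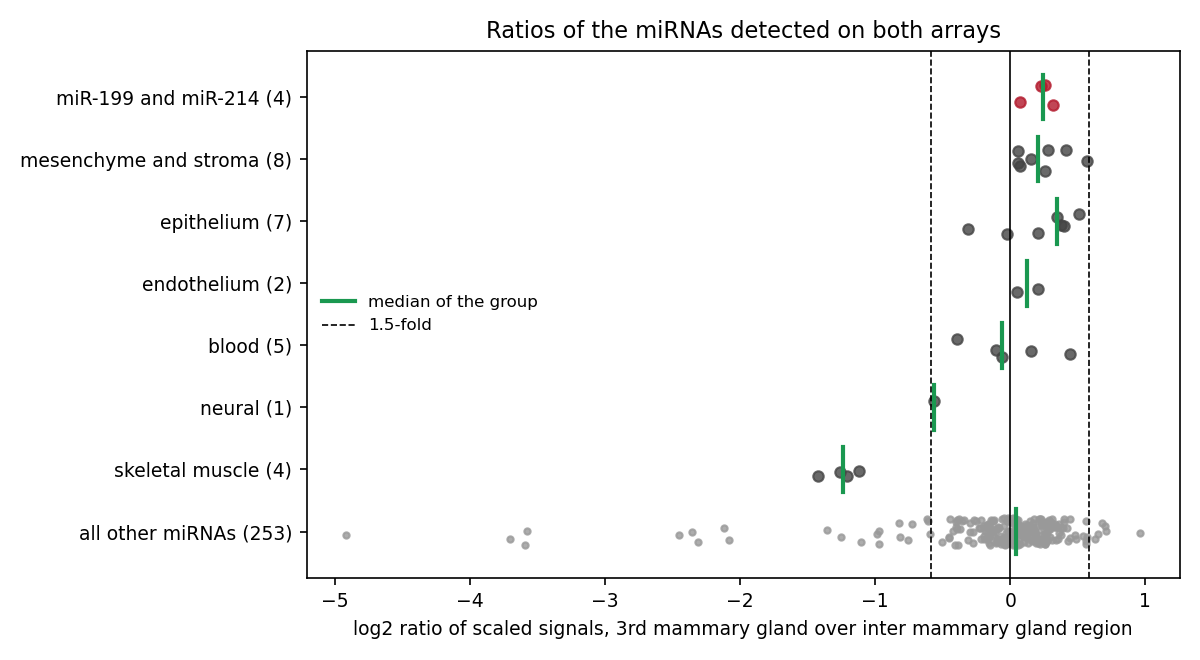
Log2 ratio of scaled signals, gland over flank, for the 284 miRNAs detected on both arrays. Each point is 1 miRNA, rows are the groups described in the text with the number plotted, green bars are medians, and dashed lines mark 1.5-fold. miR-199 and miR-214 sit between 0.07 and 0.32, inside the dashed lines. The mesenchyme and stroma, epithelium, endothelium and blood rows lie inside them as well, and the skeletal muscle row lies outside.

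Other miRNAs that are known from mesenchyme and stroma spread more widely than the 4. Of 10 in the list, 8 were detected on both arrays, with a median log2 ratio of 0.20 (0.057 to 0.57), and 0 of the 8 reached 1.5-fold. miR-143, a miRNA of smooth muscle and fibroblasts, had a log2 ratio of 0.25. miR-140*, from the hairpin of cartilage cells, had 0.28 and its partner miR-140 had 0.057. miR-125b-5p had 0.41 and miR-99a 0.57, the highest of the list, while miR-100 (0.057), miR-22 (0.071) and miR-152 (0.15) were lower. miR-145 was not detected in either region. miR-29a met the detection rule only in the flank, but its signal was 20.6 there and 21.0 in the gland, both close to the brightest negative control spots. With no scaling, miR-99a passed 1.5-fold, with a log2 ratio of 0.70.

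Epithelial miRNAs did not separate cleanly from miR-199 and miR-214 either. All 7 in the list were detected on both arrays, with a median log2 ratio of 0.34, and 0 reached 1.5-fold, although miR-200a did so with no scaling (0.64). The 5 members of the miR-200 family, which keep epithelial cells from taking on mesenchymal traits, lay between 0.21 for miR-141 and 0.51 for miR-200a. miR-203 and miR-205, miRNAs of the epidermis, were at -0.31 and -0.021, the latter above 0 with no scaling (0.11). In whole tissue, fewer cells of a type and less RNA per cell cannot be told apart.

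Skeletal muscle miRNAs differed between the regions in the other direction and by far more. miR-1, miR-133a, miR-133b and miR-206 were 2.17, 2.31, 2.40 and 2.69 times higher in the flank, and all 4 passed 1.5-fold. Of the blood miRNAs, 5 of 6 were detected on both arrays with a median log2 ratio of -0.060, from -0.39 for miR-486 to 0.44 for miR-451, and 0 reached 1.5-fold. That median was above 0 with no scaling (0.070). The endothelial strands miR-126-3p and miR-126-5p were at 0.046 and 0.21. Of the 4 neural miRNAs only miR-128 was detected, at -0.57, and miR-124, the defining miRNA of neurons, was not detected in either region. Whether the muscle content of the flank lowered the share of miR-199 and miR-214 in its RNA was not tested.

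The deposited totals gave the same direction. These totals are the software's sum over detected probes, with its own error estimate. For miR-199a-3p the total was 16304 (error 1188) in the flank and 22739 (error 1659) in the gland. For miR-214 it was 3839 (error 292) and 5145 (error 390). miR-199a-5p had 6661 (error 543) and 8706 (error 691), and miR-199b* 7983 (error 629) and 9407 (error 733). The quotients without any scaling were 1.39 for miR-199a-3p, 1.34 for miR-214, 1.31 for miR-199a-5p and 1.18 for miR-199b*, all under 1.5-fold. In these unscaled totals 77.1% of the 284 miRNAs detected on both arrays had a quotient above 1.

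**Figure D3:**
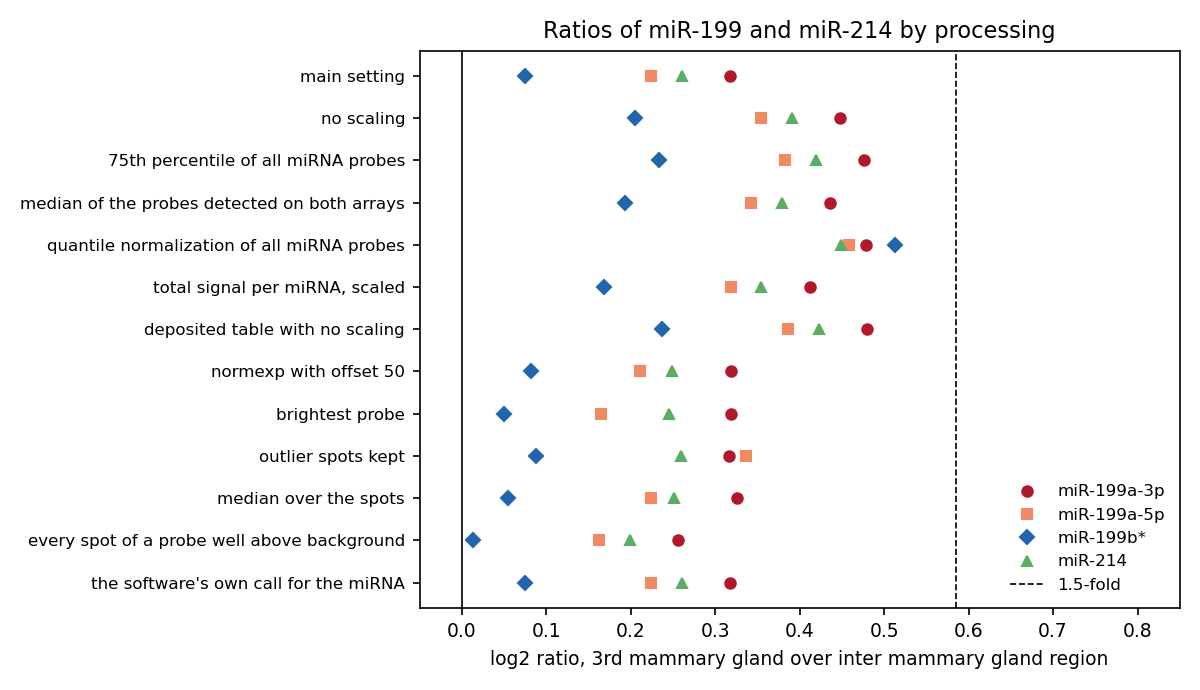
Log2 ratio of each of the 4 miRNAs (symbols), gland over flank, under the main setting and 12 alternatives (rows). The dashed line marks 1.5-fold and the solid line no difference. All 52 points lie between 0.01 and 0.51, above 0 and below the dashed line.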

How the data were processed

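Levels of 696 miRNAs were measured in 2 regions of E13.5 embryos, with 1 Agilent array each. The samples were grouped by their tissue labels. Per the file headers, the authors made the spot values with version 10.7.3.1 of Feature Extraction. The deposited spot intensity is background-subtracted, linear and not normalized between arrays. The deposited table equals the software's total signal for all 696 miRNAs, with 0.1 for a miRNA not called detected. GeneSpring GX is named in the methods for normalization.

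Here the control and outlier spots were dropped and a mean was taken over the remaining spots of each probe. Arrays were scaled to equal 75th percentiles of the probes detected on both, and a miRNA's signal is the mean of its probes. No miRNA spot was saturated. The SD of a log2 ratio combines the spread of the log2 spots around their probe means on both arrays. The threshold was 1.5-fold. The number of arrays limits the precision, and no test was possible. The steps were tested on simulated spots with planted differences above that threshold, so ratios as small as those of the 4 miRNAs were not covered. Alternatives covered scaling, signal column, background correction, probes, outlier spots and detection. The planned normexp correction (offset 50) used the median pixel signal of each spot, as the files hold no mean. The miRNAs described and the lists (mesenchyme and stroma, epithelium, skeletal muscle, endothelium, blood, neural) were chosen with earlier results of these data known. Named miRNAs were the 4 members, the other arm of their hairpins, miRNAs with a member's seed, the lists, and the 5 others closest in ratio. Sequences and loci came from RefSeq (GRCm38.p6). The software was limma 3.58.1 in R 4.3.3, and numpy 2.4.6, pandas 2.3.3 and matplotlib 3.10.9 in Python 3.11.15.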

Additional observations from a re-analysis of the deposited data

How the results depend on the processing

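No paired analysis was possible because there is a single array for each region. The log2 ratios of the 4 miRNAs were recomputed under 12 alternatives, and all 48 values stayed above 0 and under 1.5-fold, the highest being a ratio of 1.43. Over these alternatives, 46.0% to 77.1% of all miRNAs detected on both arrays had a ratio above 1. In 33 of the 48 the value moved by less than its SD over spots, but the software's own call cannot move any value. The other 15 follow. With the 75th percentile of all miRNA probes the log2 ratio was 0.48 for miR-199a-3p, 0.38 for miR-199a-5p and 0.23 for miR-199b*. With quantile normalization it was 0.48 for miR-199a-3p, 0.46 for miR-199a-5p, 0.51 for miR-199b* and 0.45 for miR-214. With the deposited table and no scaling it was 0.48 for miR-199a-3p, 0.39 for miR-199a-5p and 0.24 for miR-199b*. With no scaling of the spot signals it was 0.35 for miR-199a-5p and 0.20 for miR-199b*. For miR-199a-5p it was also 0.34 with scaling to the median probe, 0.32 with the scaled total signals and 0.34 with outlier spots kept. The lowest value was 0.013, for miR-199b* when detection required all spots of a probe. Scaling factors move all miRNAs of an array alike, so they cannot change the gap between the medians, and the 48 are not separate checks. Over all settings the median of the 4 was 0.19 to 0.30 above that of all miRNAs.

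Of all miRNAs, those past 1.5-fold upward in the gland numbered 6 in the main analysis, 15 with no scaling and with scaling to the median probe, 19 when all probes set the 75th percentile, 14 with quantile normalization and with the scaled total signals, 20 with the deposited table, 13 with the software's own call, 2 after normexp, 3 with dim miRNAs left out and 0 past 2-fold. Those past it downward numbered 26, and 18 (normexp) to 33 (the software's own call) under the other settings, except for 13 with dim miRNAs left out and 16 past 2-fold. The share of higher among both went from 6 of 32 to 20 of 41 with the deposited table and to 2 of 20 after normexp. Filters and the 2-fold threshold lower counts by construction. No scaling, the median probe and the use of all probes give the gland a larger factor, which raises all log2 ratios alike. That raises the upward count and lowers the downward one by construction. For the other settings the cause was not tested.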

Other observations

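All 4 miRNAs were among the 71 brightest of the 284 miRNAs detected on both arrays, by the mean of the scaled signals. This grouping was chosen after the values were seen. It ranks array signals, which also depend on how well each probe binds, and not the levels of the miRNAs. The median log2 ratio of the other 67 bright miRNAs was 0.020, and 36 of them (53.7%) had a ratio above 1. The median of miR-199 and miR-214, 0.24, was exceeded by 16 of the 67 (23.9%).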
